A study of Mus musculus with 8 samples.

Results

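Carbonic anhydrases were examined in tendon stem cells (TSCs) cultured in medium rich in glucose and fatty acid. The 10 genes described here (Car2, Car3, Car4, Car5b, Car6, Car8, Car9, Car12, Car13 and Car14) were selected by gene symbol from the 19301 genes of the deposited table. They were chosen with their HFHG to low glucose differences already known, so those differences are given as a description. Where one of the 10 is said to be past or not past a threshold, this repeats its place in the fit over all genes and is not offered as a test. The table holds 16 carbonic anhydrase genes in all, and the other 6 are given beside the 10. The samples were 8 mRNA libraries of primary mouse TSCs, which the study grew out of collagenase-digested patellar tendon of C57BL/6J mice. 4 libraries came from cells in high fat, high glucose (HFHG) medium, which combined a high glucose concentration with palmitic acid (300 µM), a saturated fat of the diet. 4 came from cells in low glucose (LG) medium with 5.5 mM glucose and DMSO, the solvent, in place of palmitic acid. Both groups were cultured for 4 days, and glucose and palmitic acid changed together, so their effects cannot be told apart. The labels name no engineered allele. The study counts the 4 libraries of a group as biological replicates, and the sources used here do not say whether they came from separate mice, so the spread may be partly technical.

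Carbonic anhydrases are zinc enzymes that interconvert carbon dioxide and water with bicarbonate and a proton. The isoforms differ in where they work. Some are dissolved in the cytosol, others sit in mitochondria, others are anchored in the plasma membrane with their active site outside the cell, and 1 is secreted. They speed up carbon dioxide removal, set the pH inside and outside the cell, and supply bicarbonate to carriers and to carboxylating enzymes. Car8, Car10 and Car11 are related proteins that lack residues needed for catalysis. Car9 and, in many cells, Car12 are known targets of hypoxia-inducible factor (HIF), a transcription factor that binds DNA at a short core sequence.

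The sequence around a form of that core is shown because Car9 is a classic HIF target. The letters searched were ACGTG, on both strands, in the 300 bases from 250 before to 50 after each RefSeq start (GRCm38.p6). Other forms of the core were not searched. 6 of the 10 genes matched an entry, and 4 of these 6 held the letters, against 19.6% of all 32851 promoters. The longer palindrome CACGTG, which contains ACGTG on either strand, occurred in 1 of the 6 (Car6) and in 7.15% of all promoters. Capitals mark the matched letters in the 30-base stretches, each written 5′ to 3′ on the strand of its gene.
Car6 (chr4:150201267-150201296, minus strand): gaggaggtgaggCACGTGcacaggcaccaa
Car9 (chr4:43506995-43507024, plus strand): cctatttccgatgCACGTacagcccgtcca
Car4 (chr11:84957743-84957772, plus strand): aggagccgactccCACGTctagccgtccgg
Car14 (chr3:95904676-95904705, minus strand): ccacccccctcctCACGTacaccggtttcg
The match in Car9 began 18 bases before the RefSeq start, that in Car14 began 7 bases before it, that in Car4 began at base 3 of the RefSeq transcript, and that in Car6 began 149 bases before the start. By the gene coordinates of the GENCODE M21 annotation, Car6 and Car9 start further upstream, so their stretches lie inside the gene. Car4 starts further downstream there, so its stretch lies upstream of the gene. The Car14 stretch spans the GENCODE start of its gene. The promoters of Car5b and Car12 held no match to these letters in this window, and Car2, Car3, Car8 and Car13 had no entry to search. A match is a description of letters and not evidence that a factor binds.

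The files gave expression as FPKM, the reads on a gene scaled by its length and by the mapped reads of the library. Comparing levels between genes, as in sums and shares, thus rests on the gene lengths used, whose transcript models are unknown. The reads behind each FPKM were recovered from the values, and the libraries held 34308108 to 37362725 reads. A gene was tested when 4 or more libraries reached 0.5 FPKM. Of the 11710 tested genes, 64.8% differed between HFHG and LG at an adjusted p-value below 0.05 (limma, Benjamini-Hochberg), with 30.8% lower and 34.0% higher in HFHG. The median log2 fold change over these genes was 0.02. TSC libraries expressed tendon and fibroblast genes strongly (11 markers, summed FPKM 2734 to 2779 in HFHG and 1726 to 1767 in LG, 9 higher and 1 lower), although the tendon-defining genes Scx and Tnmd were low. Macrophage markers were also present (9 markers, summed FPKM 1741 to 1791 in HFHG and 1896 to 1979.6 in LG, 1 higher and 6 lower), with Lyz2 making up most of that sum. In bulk RNA, fewer cells of a type and less RNA per cell cannot be told apart.

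As a group, the 10 carbonic anhydrase genes were less abundant in HFHG. Their summed level was 40.5, 39.5, 38.0 and 38.8 FPKM in the HFHG libraries and 87.7, 85.1, 88.0 and 91.0 FPKM in the LG libraries, with means of 39.2 ± 1.06 and 88.0 ± 2.43 (SD, n = 4 each), 2.25-fold lower in HFHG. Most of this gap came from 1 gene, the secreted Car6. 6 of the 10 genes passed the filter on low values, and 5 of these 6 were past the adjusted threshold, 4 lower (Car6, Car9, Car12, Car13) and 1 higher (Car5b). Beside these counts stand the 30.8% lower and 34.0% higher over all tested genes, and nothing is read from the comparison because the genes were listed with this contrast in view. Car2, Car3, Car8 and Car14 were below the filter.

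**Figure D1:**
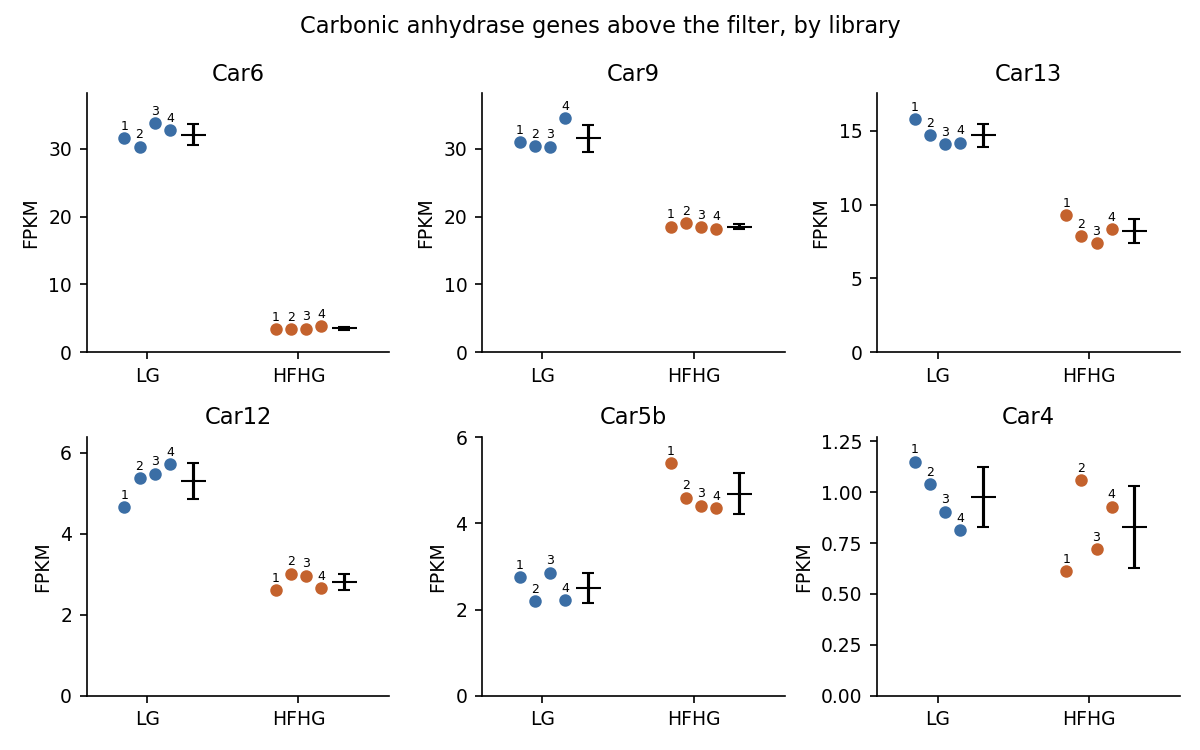
FPKM (vertical axes, each from 0) of the 6 carbonic anhydrase genes above the filter, with 1 point per library numbered by replicate, and the mean and SD of each group of 4 as a black bar. HFHG points lie below all LG points for Car6, Car9, Car13 and Car12, above them for Car5b, and among them for Car4.

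Car6 (NCBI gene 12353, chr4:150187015-150201332, GRCm38, minus strand) encodes the secreted carbonic anhydrase, best known from saliva and milk. Its level was 3.38, 3.42, 3.47 and 3.83 FPKM in HFHG and 31.6, 30.3, 33.8 and 32.7 FPKM in LG. The groups lay far apart and each was tight. The means were 3.53 ± 0.209 and 32.1 ± 1.51 FPKM (SD, n = 4), a ratio of LG to HFHG of 9.11. In the fit, which adds 0.1 to the FPKM, Car6 was 8.89-fold lower in HFHG, with a log2 fold change of -3.15 (SE 0.052). These levels rested on 166 to 192 reads per HFHG library and 1486 to 1643 reads per LG library. Among all 11710 tested genes, 1 had a lower log2 fold change (Mlana, -3.18, at under 2 FPKM in every library, and -1.17 when 1 in place of 0.1 was added to the FPKM). Past the threshold with a log2 fold change below -1 stood 1.63% of all tested genes, and above 1 stood 3.68%. Car6 was the only one of the 10 genes in either class.

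Because Car6 is a gland product, salivary markers were read beside it. 5 of 6 salivary markers were in the table, their summed level was 1.15 to 1.79 FPKM in HFHG and 1.31 to 2.49 FPKM in LG, and 4 stayed under 1 FPKM in every library. The water channel Aqp5 was the only one of them tested, with a log2 fold change of -0.55 that was past the threshold but not with HFHG replicate 1 or 3 or LG replicate 2 or 3 left out (-0.47, -0.48, -0.39 and -0.51). Of 7 epithelial markers, 6 stayed under 1 FPKM in every library and the keratin Krt19 carried the sum, which was 2.77 to 4.26 FPKM in HFHG and 11.9 to 13.9 FPKM in LG. The part of these cells in the Car6 difference was not tested.

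The genes whose log2 level followed Car6 most closely over the 8 libraries, among 10671 genes averaging 1 FPKM or more, were Srxn1 (Pearson r = 0.9997), Snx5 (r = 0.9996) and B4galt5 (r = 0.9993). Srxn1, which encodes sulfiredoxin, an enzyme that repairs oxidised peroxiredoxins, averaged 43.5 FPKM in HFHG and 109 FPKM in LG. Snx5, a sorting nexin of endosomes, averaged 43.0 and 68.4 FPKM. B4galt5, a galactosyltransferase of glycolipid synthesis, averaged 22.8 and 51.4 FPKM. Libraries fell into 2 separate groups, so these coefficients describe mainly the step between HFHG and LG.

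Car9 (NCBI gene 230099, chr4:43506966-43513729, plus strand) encodes a plasma membrane isoform with its active site outside the cell. Its level was 18.5, 19.0, 18.4 and 18.2 FPKM in HFHG and 31.0, 30.4, 30.3 and 34.5 FPKM in LG. The groups did not overlap, and LG replicate 4 stood above the other 3 LG libraries, which were close together. The means were 18.5 ± 0.363 and 31.6 ± 2.0 FPKM (SD, n = 4), 1.7-fold lower in HFHG, with a log2 fold change of -0.76 (SE 0.0431) that was -0.72 without LG replicate 4. An annotated antisense gene, Gm12454, shares exonic sequence with Car9 on the opposite strand. The library kit keeps strand, but the sources used here do not say whether counting used it, so reads of the pair may not have been told apart.

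Car12 (NCBI gene 76459, chr9:66713686-66766845, plus strand), another membrane isoform facing outward, was at 2.61, 3.01, 2.96 and 2.65 FPKM in HFHG and at 4.66, 5.37, 5.48 and 5.71 FPKM in LG. All LG libraries were above all HFHG libraries, and LG replicate 1 was the lowest of its group. The means were 2.81 ± 0.208 and 5.3 ± 0.453 FPKM (SD, n = 4), 1.86-fold lower in HFHG, with a log2 fold change of -0.89 (SE 0.0783).

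Car4 (NCBI gene 12351, chr11:84957786-84966044, plus strand), which is tied to the outer face of the membrane by a lipid anchor, did not share this pattern. Its level was 0.611, 1.06, 0.719 and 0.928 FPKM in HFHG and 1.15, 1.04, 0.905 and 0.814 FPKM in LG, on 37 to 64 reads per library. The groups overlapped widely, with means of 0.83 ± 0.203 and 0.976 ± 0.147 FPKM (SD, n = 4) and a log2 fold change of -0.23 (SE 0.164) that was not past the threshold. A missing call does not show equal levels.

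Car13 (NCBI gene 71934, chr3:14641727-14663002, plus strand) encodes a cytosolic isoform. Its level was 9.28, 7.84, 7.37 and 8.31 FPKM in HFHG and 15.8, 14.7, 14.1 and 14.2 FPKM in LG. The groups did not overlap, and replicate 1 was the highest library in both. The means were 8.2 ± 0.814 and 14.7 ± 0.773 FPKM (SD, n = 4), 1.79-fold lower in HFHG, with a log2 fold change of -0.84 (SE 0.0662). Car13 heads a cluster of 4 carbonic anhydrase genes (Car13, Car1, Car3, Car2) that spans 259044 bases of chromosome 3, from 14641727 to 14900770. Its 3 neighbours were all below the filter, so within the cluster Car13 alone was expressed at a level that could be tested.

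Car5b (NCBI gene 56078, chrX:163976822-164027997, minus strand) encodes a mitochondrial isoform, which supplies bicarbonate to pyruvate carboxylase. It was the only one of the 10 genes that was past the threshold in the opposite direction. Its level was 5.40, 4.60, 4.41 and 4.36 FPKM in HFHG and 2.75, 2.20, 2.86 and 2.22 FPKM in LG. Every HFHG library was above every LG library, with HFHG replicate 1 the highest. The means were 4.7 ± 0.481 and 2.51 ± 0.344 FPKM (SD, n = 4), 1.85-fold higher in HFHG, with a log2 fold change of 0.88 (SE 0.1).

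Values of HFHG and LG libraries were separate, without overlap, for Car6, Car9, Car12, Car13 and the low Car8 (HFHG lower) and for Car5b (HFHG higher). Over all tested genes, which do not include Car8, 28.1% were separate with HFHG lower and 31.1% with HFHG higher. Nothing is read from the difference in share.

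**Figure D2:**
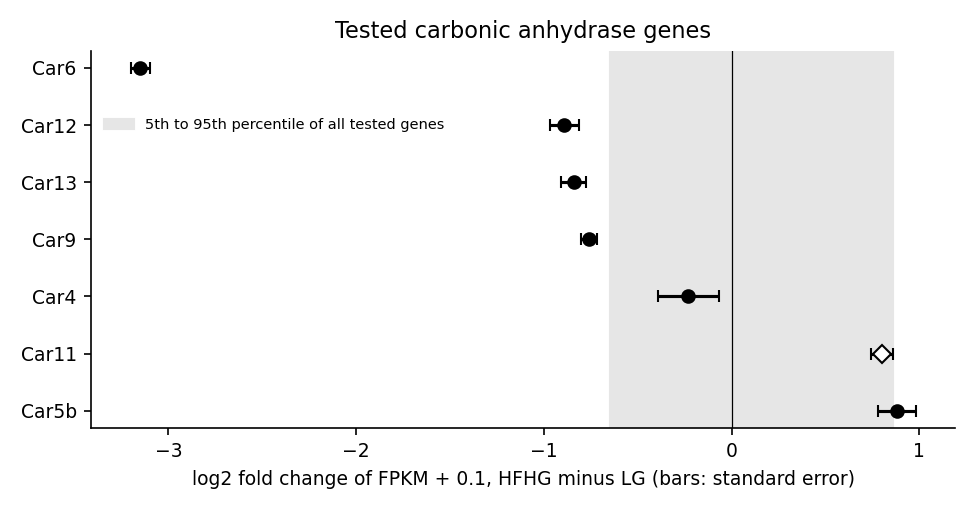
Log2 fold change of FPKM + 0.1 (horizontal axis, HFHG minus LG) with its standard error for the 7 carbonic anhydrase genes above the filter, as filled circles for the listed genes and an open diamond for Car11. The grey band runs from -0.65 to 0.86, the 5th to 95th percentile of all tested genes, and Car6 lies far to its left at -3.15. Car9 (-0.76), Car13 (-0.84) and Car12 (-0.89) lie just left of the band and Car5b (0.88) just right. Car4 and Car11 lie within it.

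The 4 genes below the filter were counted in few reads, and their ratios of reads per library total are given with exact binomial 95% intervals, which cover counting error only. Car8 (NCBI gene 12319, chr4:8143362-8239041, minus strand) encodes a related protein known to bind the inositol trisphosphate receptor, and it had 32, 24, 31 and 16 reads in HFHG and 68, 64, 37 and 86 reads in LG. No HFHG library reached an LG library, although LG replicate 3 came near, and the HFHG to LG ratio was 0.394 (95% interval 0.31 to 0.497). In FPKM all of its libraries lay between 0.0765 and 0.422.

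Car2 (NCBI gene 12349, chr3:14886273-14900770, plus strand) is the abundant cytosolic isoform of red cells, kidney and osteoclasts. It had 15, 18, 17 and 21 reads in HFHG and 19, 26, 9 and 4 reads in LG. The LG libraries spread on both sides of the HFHG libraries, and the ratio of 1.19 had an interval (0.832 to 1.72) that includes 1. Red cell markers were near 0 (7 markers, summed FPKM at most 0.788 in HFHG and 0.871 in LG). Of 7 osteoclast markers, Calcr, Oscar, Dcstamp and Ocstamp stayed under 1 FPKM in every library, and the 3 tested ones were lower in HFHG. The osteoclast sum, 100 to 104 FPKM in HFHG and 337 to 363 FPKM in LG, was almost wholly Ctsk, a protease that fibroblasts also express.

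Car3 (NCBI gene 12350, chr3:14863512-14872523, plus strand), the isoform typical of skeletal muscle and fat, had 7, 0, 3 and 5 reads in HFHG and 0, 5, 0 and 2 reads in LG. Libraries at 0 occurred in both groups, and the ratio of 2.09 had an interval from 0.802 to 6.06, so no difference was detectable at this depth. Muscle markers summed to 1.68 to 3.69 FPKM in HFHG and 4.20 to 4.81 FPKM in LG (9 of 10 in the table, 2 tested, 1 lower). The lower one, the actin Acta1, averaged 0.904 FPKM in HFHG and 3.38 FPKM in LG and made up most of the LG sum. The other muscle markers were low and mixed in direction. Among them Tnnt3, below the filter, had 97 reads in HFHG and 19 in LG, without overlap. Fat cell markers summed to at most 0.13 FPKM in HFHG and 0.395 FPKM in LG (5 of 6 in the table, none tested).

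Car14 (NCBI gene 23831, chr3:95897768-95904691, minus strand), a further membrane isoform, had 12, 9, 12 and 9 reads in HFHG and 10, 16, 13 and 23 reads in LG. The groups overlapped and LG replicate 4 was the highest, and the ratio was 0.66 (0.435 to 0.993). Its exons overlap those of Aph1a on the other strand, so some of these reads could belong to that gene.

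**Figure D3:**
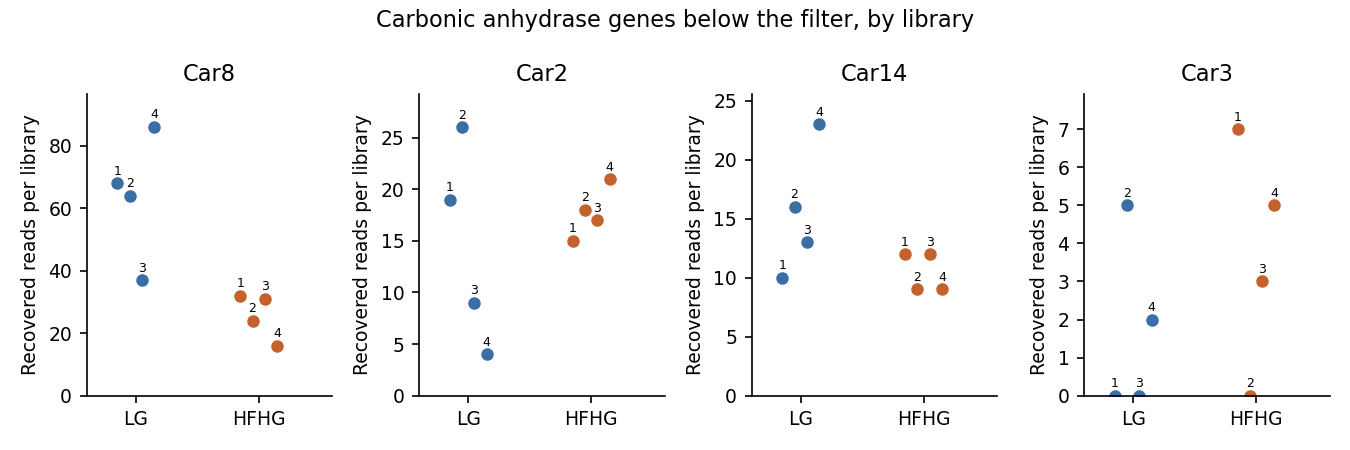
Recovered reads per library (vertical axes, each from 0) for the 4 carbonic anhydrase genes below the filter, with 1 point per library numbered by replicate. HFHG and LG are separate for Car8, with at most 32 reads in HFHG and at least 37 in LG, and mixed for Car2, Car14 and Car3.

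Of the 6 carbonic anhydrase genes outside the list, Car11 was the only one above the filter. Car11, a related protein without catalysis (NCBI gene 12348), was at 6.10, 5.80, 6.23 and 6.02 FPKM in HFHG and at 3.45, 3.16, 3.59 and 3.52 FPKM in LG. It was higher in every HFHG library than in any LG library (6.04 ± 0.181 against 3.43 ± 0.191 FPKM, SD, n = 4, log2 fold change 0.80, SE 0.0595, limma adjusted p = 1.14e-07). Cytosolic Car7 had 154 reads in HFHG and 236 in LG in all (ratio 0.636, 0.516 to 0.783), and the groups overlapped narrowly, at 0.446 FPKM for the highest HFHG library and 0.445 FPKM for the lowest LG library. Car5a, the other mitochondrial isoform, had 38 and 27 reads, Car15 had 25 and 35, and Car1 had 4 and 5. Car10 had 1 read in HFHG and 15 in LG, of which 9 were in LG replicate 4. Ptprg, a receptor phosphatase with a carbonic anhydrase-like domain, was lower in HFHG (10.1 against 15.8 FPKM, log2 fold change -0.65, limma adjusted p = 9.57e-08), and Ptprz1, of the same kind, was below the filter.

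Grouped by where the protein works, the family differed in composition as well as in size. Over all 16 genes the summed level was 46.0 ± 1.07 FPKM in HFHG and 92.4 ± 2.76 FPKM in LG (SD, n = 4), 2.01-fold lower in HFHG. The secreted class, which is Car6 alone, made up 7.68% of the family FPKM in HFHG and 34.8% in LG. Membrane-bound genes summed to 22.5 ± 0.575 FPKM in HFHG and 38.3 ± 2.23 FPKM in LG, and their share was 48.9% and 41.4%. Cytosolic genes summed to 8.89 ± 0.847 and 15.5 ± 0.879 FPKM, with shares of 19.3% and 16.8%. The mitochondrial and the related classes went the other way. Mitochondrial genes summed to 4.91 ± 0.489 FPKM in HFHG and 2.66 ± 0.39 FPKM in LG, with shares of 10.7% and 2.88%. Related proteins without catalysis summed to 6.16 ± 0.201 and 3.77 ± 0.225 FPKM, with shares of 13.4% and 4.08%. Within the related class, Car11 was higher in HFHG while the low Car8 was lower.

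**Figure D4:**
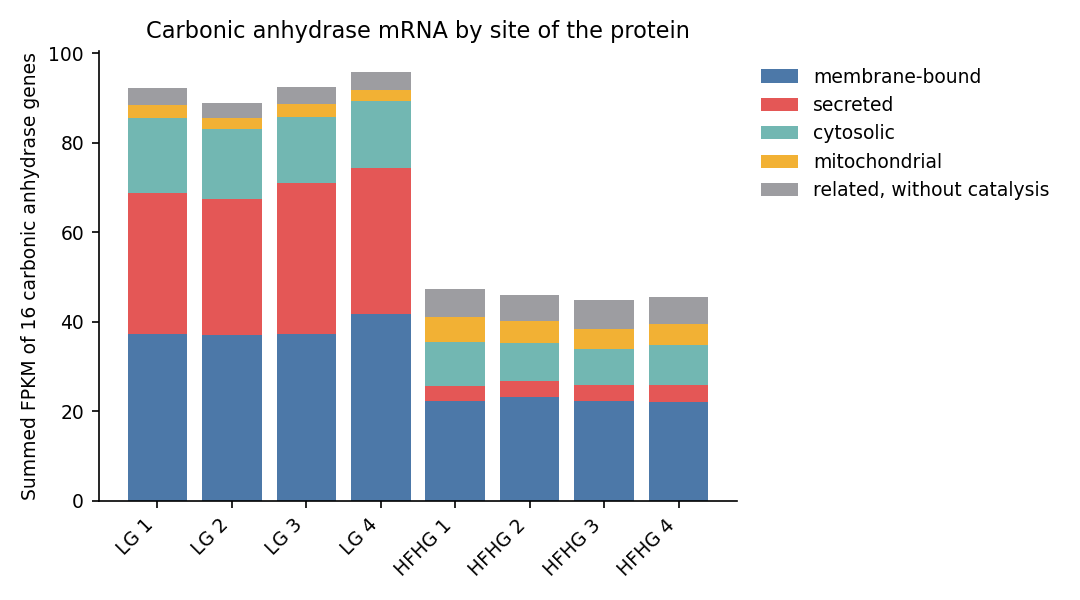
Summed FPKM (vertical axis, from 0) of the 16 carbonic anhydrase genes in each of the 8 libraries, stacked by where the protein works. All 4 HFHG libraries are far shorter than the LG libraries, and the secreted class shrinks from 34.8% to 7.68% of the family.

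The order of levels within a group of libraries also differed. In LG, Car6 (30.3 to 33.8 FPKM) and Car9 (30.3 to 34.5 FPKM) shared the top place with overlapping ranges, followed by Car13, Car12, Car11, Car5b and Car4, whose ranges were separate from their neighbours. In HFHG, Car9 stood first, then Car13, Car11, Car5b, Car6, Car12 and Car4, with no overlap between neighbours. The ratio of Car6 to Car9 FPKM, which does not depend on library scaling, was 0.182, 0.18, 0.188 and 0.211 in HFHG and 1.02, 0.996, 1.12 and 0.948 in LG. Car6 thus went from about the level of Car9 in LG to well below it in HFHG, with mean ratios of 0.191 ± 0.0143 in HFHG and 1.02 ± 0.0707 in LG (SD, n = 4). These ratios rest on the gene lengths used, and the Car9 level may include reads of Gm12454.

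Carbonic anhydrases act with carriers that move bicarbonate and protons, and these lists were mixed in direction. Of 15 genes of the Slc4 and Slc26 carrier families, listed as bicarbonate transporters, 6 were tested, and 2 rose, 2 fell and 2 did not pass. This was 66.7% called against 64.8% of all tested genes, with a median log2 fold change of 0.05 against 0.02. Family membership does not by itself show that a gene carries bicarbonate. The chloride and bicarbonate exchanger Slc4a2, the most abundant, fell from 30.8 FPKM in LG to 24.0 FPKM in HFHG (log2 fold change -0.36, limma adjusted p = 1.78e-06), and Slc26a6, another exchanger, fell from 1.54 to 0.98 FPKM (-0.60, adjusted p = 8.43e-05). The exchanger Slc4a3 rose from 2.70 to 3.83 FPKM (0.49, adjusted p = 9.72e-05), and the sodium and bicarbonate cotransporter Slc4a4 rose from 4.70 to 6.38 FPKM (0.44, adjusted p = 0.000131).

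Of 16 genes of proton extrusion, 10 were tested, and 5 rose, 4 fell and 1 did not pass (90.0% called against 64.8% of all tested genes, median log2 fold change 0.05 against 0.02). The sodium and proton exchangers Slc9a5 (0.949 to 1.47 FPKM from LG to HFHG, limma adjusted p = 0.000913) and Slc9a9 (1.23 to 1.88 FPKM, adjusted p = 0.000271) rose. The proton channel Hvcn1 fell from 5.19 to 3.51 FPKM (log2 fold change -0.56, adjusted p = 8.88e-05). Bsg, the chaperone of lactate carriers and the most abundant gene of the list, fell from 1462 to 1301 FPKM (-0.17, adjusted p = 0.000167).

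Of 9 enzymes that use bicarbonate, 8 were tested, and 2 rose, 2 fell and 4 did not pass (50% called against 64.8% of all tested genes, median log2 fold change -0.02 against 0.02). Pcx, the mitochondrial pyruvate carboxylase and the most abundant of the list, rose from 9.27 FPKM in LG to 14.5 FPKM in HFHG (log2 fold change 0.64, SE 0.0541, limma adjusted p = 3.84e-07), which is the direction of Car5b. Acacb, the acetyl-CoA carboxylase of the mitochondrial surface, rose from 0.560 to 1.03 FPKM (0.77, adjusted p = 0.000413), and Mccc1, of leucine breakdown, fell from 5.89 to 4.36 FPKM (-0.43, adjusted p = 2.16e-05).

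Of 24 other HIF-induced genes in the table, all were tested, and 17 fell in HFHG (70.8%, against 30.8% of all tested genes). Of the others, 3 rose and 4 did not pass, and the median log2 fold change of the list was -0.27 against 0.02. The list was chosen with earlier results of these data known, so this share is a description and nothing is read from the comparison. The largest falls were in Ero1a, a protein-folding oxidase (588 to 203 FPKM from LG to HFHG, log2 fold change -1.53, limma adjusted p = 2.68e-13), Hk2, a hexokinase (46.5 to 16.4 FPKM, -1.49, adjusted p = 9.9e-13), and Slc2a1, a glucose carrier (353 to 171 FPKM, -1.04, adjusted p = 2.46e-12). The glycolytic Pgk1, the most abundant over the 8 libraries together, fell from 980.2 to 721 FPKM (-0.44, adjusted p = 4.71e-10). The 3 that rose were Ldha, Mxi1 and Adm. Adm, which encodes the vessel-dilating peptide adrenomedullin, rose from 516 to 1012 FPKM (log2 fold change 0.97, limma adjusted p = 4.37e-13). Several genes of this list, such as Hk2, Slc2a1 and Pgk1, belong to glucose metabolism. Glucose and palmitic acid both differed between the media, and the part of either in these differences was not tested.

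Of 7 genes for HIF subunits and their regulators, 6 were tested, and 3 rose, 2 fell and 1 did not pass (83.3% called against 64.8% of all tested genes, median log2 fold change 0.12 against 0.02). Hif1a mRNA, which encodes an oxygen-regulated subunit and was the most abundant, fell from 249 to 207 FPKM (log2 fold change -0.27, limma adjusted p = 3.78e-06). Epas1 mRNA, which encodes the alternative subunit HIF-2α, rose from 2.81 to 5.38 FPKM (0.91, adjusted p = 6.17e-08), and Arnt2, a partner subunit, rose from 9.57 to 11.2 FPKM (0.22, adjusted p = 0.000329). HIF is controlled mainly at the protein level, which was not measured here.

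**Figure D5:**
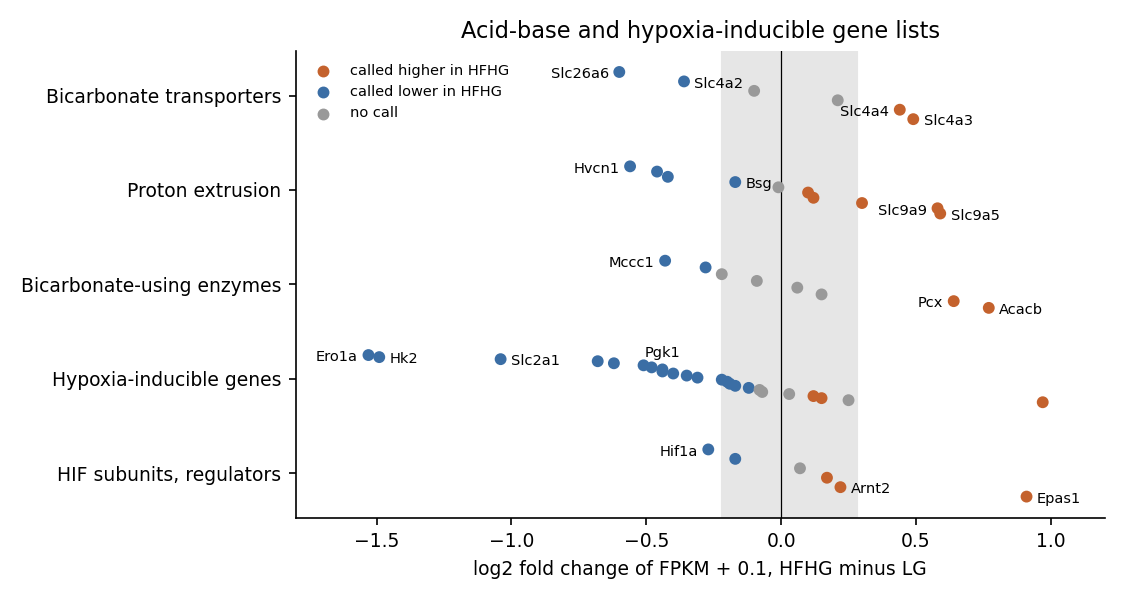
Log2 fold change of FPKM + 0.1 (horizontal axis, HFHG minus LG) of each tested gene in 5 lists, coloured by whether it was past the adjusted threshold and in which direction, with the named genes labelled and the middle 50% of all tested genes in grey. Hypoxia-inducible genes lie mostly to the left of 0 (17 of 24 called lower), and the other lists spread to both sides. The lists were chosen with earlier results of these data known.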

How the data were processed

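Expression was measured by stranded mRNA-seq in 8 libraries of mouse TSCs, 4 HFHG and 4 LG, grouped by the sample labels. The doses come from the paper. The authors deposited FPKM for 19301 genes, one column per library without pooling. The submitters' processing notes name HISAT2 2.1.0 and mm10, while the counting program, annotation and strand setting are not given in the sources used here. Whole reads were recovered for 19301 of 19301 genes (100%, tolerance 0.0001 reads). The reads on these 19301 genes made up 99.82% to 99.85% of the library totals. The recovered length equalled that of a GENCODE M21 transcript for Car13 and for none of the other 9 genes, so the transcript models behind the FPKM are unknown.

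limma 3.58.1 (R 4.3.3) compared HFHG with LG on log2(FPKM + 0.1), using an intensity trend and no covariates. Genes had to reach 0.5 FPKM in 4 or more libraries, and p-values were adjusted over all 11710 of them. Fold changes on this scale understate those of low genes. Folds of single genes come from this fit unless called a ratio, and folds of summed levels are ratios of group means. The fit was tested on simulated data. The members and the gene lists were chosen with earlier results of these data known. Named were all carbonic anhydrase genes, in each list the 3 genes with the largest absolute change past the threshold and the most abundant, and the 3 genes most like a member with an absolute log2 fold change above 1. Mlana, Adm, Ldha, Mxi1, Gm12454, Aph1a and the single markers were named after their values were seen. Marker lists not described elsewhere were endothelial (6 genes, summed FPKM 1.26 to 1.38 in HFHG and 0.955 to 1.18 in LG) and chondrocyte (7 genes, 5.82 to 6.99 and 5.14 to 6.35). Alternatives were other pseudocounts, filters and scalings, a replicate block, robust eBayes, each library left out, and voom on the recovered reads.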

Additional observations from a re-analysis of the deposited data

Results flagged for a closer look

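In 80 groups of 4 libraries, 7 held a library whose gap to the nearest other exceeded the 95% limit of Dixon's test, which chance does in about 1 in 20 groups. LG replicate 4 gave 4 of the 7, of which the membrane-bound sum includes Car9 and is not separate from it. In that library Car9 was at 34.5 FPKM (30.3 to 31.0 in the other 3), the membrane-bound carbonic anhydrases summed to 41.7 FPKM (37.1 to 37.2), Slc2a1 was at 363 FPKM (348 to 349.9) and Hk2 was at 45.1 FPKM (46.8 to 47.0). In LG replicate 2, Hvcn1 was at 4.73 FPKM (5.28 to 5.39). In HFHG replicate 4, Arnt2 was at 11.7 FPKM (11.0 to 11.1). Car10 was at 0.007 FPKM, a single read, in HFHG replicate 1 and at 0 in the other 3.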

How the results depend on the processing

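The 5 calls among the 10 carbonic anhydrase genes, 4 lower and 1 higher, were made under every alternative run. Without a filter on low values Car8 was also past the threshold (6 genes, 5 lower). The log2 fold change ranged from -3.19 to -2.87 for Car6, -0.80 to -0.71 for Car9, -0.99 to -0.73 for Car12, -0.90 to -0.77 for Car13 and 0.70 to 0.95 for Car5b (Car4, with no call, -0.39 to -0.11). None of the 35 tested genes followed through the alternatives changed direction, and Aqp5 alone lost its call, also with no filter on low values (-0.55). Beside Car4, genes that moved by over 1.5 times did so with a pseudocount of 1 (Acacb 0.38, Slc26a6 -0.36, Slc9a5 0.35, Slc9a9 0.37, Aqp5 -0.35, Mlana -1.17) or under rescaling or quantile normalization (Pgk1 -0.20, Bsg -0.11, Ldha 0.33 in the latter). With a pseudocount of 1, 106 genes had a log2 fold change below -1 (191 as reported) and 197 above 1 (431). With no filter, Car7 joined the lower genes among the other carbonic anhydrases, making 2 (1 as reported). With 1 library left out at a time, 7057 to 7480 genes were called, 347 to 439 had a log2 fold change above 1 and 162 to 195 below -1. The fit with the replicate number as a block called 7342 genes and changed no call among the 10. Replicate numbers did not pair the libraries (correlations of deviations -0.0736 to -0.00558, no library closest to its own number). A voom fit to the recovered reads, which was added after seeing the data, called 7782 genes and made the same calls among the 10. Scaling moved the median of all genes between -0.02 and 0.07, and higher calls were 4682 of 7684 after rescaling to the same sum, 3548 of 7601 with median-ratio scaling and 3606 of 7630 with quantile normalization (3983 of 7592 as reported). Depth limits Car2, Car3, Car4, Car8 and Car14, where 0 to 86 reads per library carry each value.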
